A study of Mus musculus with 163 samples.

Results

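Transcriptomes of fully grown oocytes (FGOs) that had grown in the same in vitro growth (IVG) culture but had entered culture at different ages were compared. The first group held 24 gonad-derived FGOs, whose germ cells were taken with the gonadal cells of E12.5 mouse embryos. These gonads were dissociated, reaggregated into reconstituted ovaries (rOvaries) with 1 µM retinoic acid and differentiated in culture (in vitro differentiation, IVD) before IVG. The IVD protocol of the paper also includes the drug fulvestrant for part of the culture, and a similar protocol was used for these rOvaries. The second group held 24 6 dpp FGOs. Their follicles had formed in the animal, were taken on day 6 post partum and were cultured for IVG only. All oocytes of the 2 cohorts were used, that is 48 of the 163 oocytes of the series. The comparison bears on the effect of IVD at the FGO stage, which the study names IVD@FGO and estimated with a model over all FGO cohorts, on oocytes selected by size. Here all oocytes of the 2 cohorts enter a pooled ratio, which is not that estimate. Levels are set beside those of 20 in vivo FGOs, 24 FGOs derived from BVSC-iPSCs (an induced pluripotent stem cell line with Blimp1-Venus and Stella-ECFP reporters) and growing oocytes (GROs) of gonad-derived (24) and in vivo (24) origin. Culture of both kinds of follicle included FSH, a collagenase treatment and early BMP15 and GDF9. The groups differ in IVD, in the embryonic start and in any difference between the mice used, and these cannot be told apart. The methods name outbred Swiss Webster mice for gonads harvested as the source of somatic cells in IVD, and the strains of the gonads behind gonad-derived FGOs and of the 6 dpp mice are not given separately in the sources used here. Each library was 1 oocyte stripped of somatic cells and zona pellucida, and no label ties an oocyte to an animal, embryo or culture.

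Mouse oocytes are arrested in meiosis while they grow inside the follicle, and they accumulate the RNA and protein that the embryo will use before its own genome is transcribed. Granulosa cells supply them with pyruvate and other metabolites through gap junctions, whereas steroid hormones are made by theca and granulosa cells around them. In vivo, primordial germ cells enter meiosis in the embryonic ovary and follicles form around birth. IVD replaces that period by culture, and it ends with secondary follicles that resemble those of a young ovary.

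The gonad-derived libraries held between 2.17 and 8.15 M reads (median 7.04; M, 1000000 reads) and the 6 dpp libraries between 4.80 and 7.86 M (median 6.71). The 2 shallowest, gonad-derived FGOs 5 and 22, held 2.17 and 2.91 M. Between 12529 and 14356 genes had at least 1 read in a gonad-derived oocyte and between 13347 and 14871 in a 6 dpp oocyte. Of the 21950 genes of the table, 12977 had more than 1 count per M reads (CPM) in at least 3 of the 48 oocytes and were compared. A pooled level is the summed count of a group per M summed reads, and a log2 ratio is gonad-derived over 6 dpp after adding 0.5 CPM to both, so that it understates the difference of genes of low level. Since the 24 oocytes of a group count as 1 sample, there is no replicate check, genes are called by size alone and the exact Poisson 95% intervals beside pooled values cover counting error only. Oocyte markers were abundant in both groups, with Gdf9 at 7701 against 6318 CPM and Zp3 at 3967 against 4119 CPM. The summed level of 19 oocyte markers had medians of 38646 CPM in gonad-derived and 37847 CPM in 6 dpp FGOs. All 19 were within 2-fold between the groups, as were 97.4% of all genes compared.

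Several libraries stood apart from their group. 6 dpp FGO 12 carried transcripts of follicular somatic cells. The summed level of 33 granulosa, cumulus, theca and stroma markers was 2535 CPM in that oocyte, against a median of 75.1 CPM in the 6 dpp group and 44.4 CPM in the gonad-derived group. Serpine2, Esr2 and Cyp19a1, each at 35.7 CPM or more in every oocyte of both groups, were left out of this sum. Nr5a2 and Kitl were also present in every oocyte, and without them the medians were 30.2 and 15.2 CPM in 6 dpp and gonad-derived FGOs, and 6 dpp FGO 12 held 2471 CPM. In the sum over all 33 markers, the next highest values were 712 CPM in 6 dpp FGO 10, 200 CPM in gonad-derived FGO 18 and 144 CPM in 6 dpp FGO 3. FGO 12 was the highest of the 24 6 dpp oocytes for 8 of 14 granulosa markers, 4 of 7 cumulus markers, 7 of 15 theca and stroma markers and 0 of 7 blood and endothelium markers. The 8 granulosa markers included Serpine2 and Kitl, and the 4 cumulus markers were low, at 0.463 to 4.16 CPM. FGO 12 also had the most genes detected, 14871, and the share of all genes that were highest in it is not given here. It held the gap junction gene Gja1 at 1208 CPM, Hsd3b1 at 644 CPM, Inhba at 169 CPM and Cyp11a1 at 138 CPM, while Amh, Col3a1, Acta2 and Pdgfra were at 0. Genes at 4-fold or more above the group median numbered 602 in FGO 12, or 4.64% of those compared, against a median of 12 genes over the 6 dpp oocytes.

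**Figure D1:**
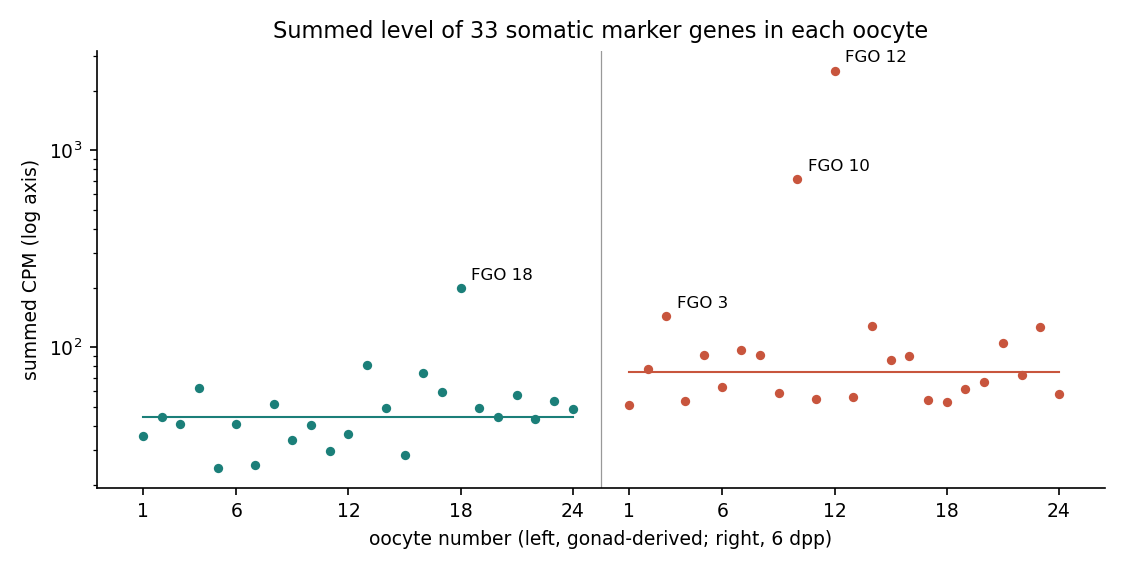
Summed CPM of 33 somatic marker genes (vertical, log axis) in each of the 48 oocytes (horizontal, oocyte number), with a line at each group's median. 6 dpp FGO 12 lies at 2535 CPM and 6 dpp FGO 10 at 712 CPM, whereas the medians are 44.4 CPM (gonad-derived) and 75.1 CPM (6 dpp).

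Gonad-derived FGO 19 differed from its group in another way. In this oocyte 1790 genes (13.8%) were at least 4-fold below the median of the other gonad-derived FGOs, and the next highest number in that group was 69. Cdk1, the kinase of meiotic resumption, stood at 3.74 CPM against 190 to 279 CPM in the other 23, and the zona pellucida gene Zp3 at 270 CPM against 3476 to 5413 CPM. Figla, a transcription factor of oocyte-specific genes, stood at 3.45 CPM against 36.0 to 66.3 CPM. By contrast, Zbed3 (27108 against a median of 11161 CPM), Tcl1 (8082 against 3343 CPM) and Pttg1 (3342 against 1432 CPM) were higher in it. Of 11 zona and egg surface genes, 6 (54.5%) were at least 2-fold below the median of the other oocytes, as were 3885 of all 12977 genes (29.9%). This was the largest share among the 25 gene lists examined. It was 38.5% for gap junction genes, 30.4% for maternal effect genes, 22.0% for meiotic control genes and 14.7% for polycomb genes. The somatic marker sum of FGO 19 was not among the highest. Results that rest on FGO 12 or FGO 19 are given with and without them below.

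Few genes separated the groups by size. By pooled ratio, 32 genes (0.247% of those compared) were higher in gonad-derived FGOs by 4-fold or more and 24 (0.185%) were lower. At 2-fold, 213 genes (1.64%) were higher and 123 (0.948%) lower, so that 12641 genes (97.4%) lay within 2-fold. The median log2 ratio over all genes was 0.02. Without 6 dpp FGO 12, 34 genes (0.262%) were 4-fold higher and 7 (0.0539%) 4-fold lower, and at 2-fold 238 (1.83%) were higher and 61 (0.47%) lower. Without gonad-derived FGO 19, the 4-fold counts were 29 (0.223%) and 23 (0.177%), and the 2-fold counts 203 (1.56%) and 120 (0.925%). The 2 directions thus differed in how far they rested on 1 oocyte: 24 of the 32 higher genes stayed past 4-fold whichever oocyte was left out, and 6 of the 24 lower genes did. Of the 18 lower genes that did not, 17 dropped below 4-fold without FGO 12 and 1, Dusp6, without 6 dpp FGO 3. In FGO 12, 22 of the 24 lower genes were at their highest level of the group, and the share over all genes is not given here. Leaving out 1 oocyte does not show whether a gene was carried by several shared oocytes. By medians over oocytes, 13 of the 32 higher and 12 of the 24 lower genes were past 2-fold.

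**Figure D2:**
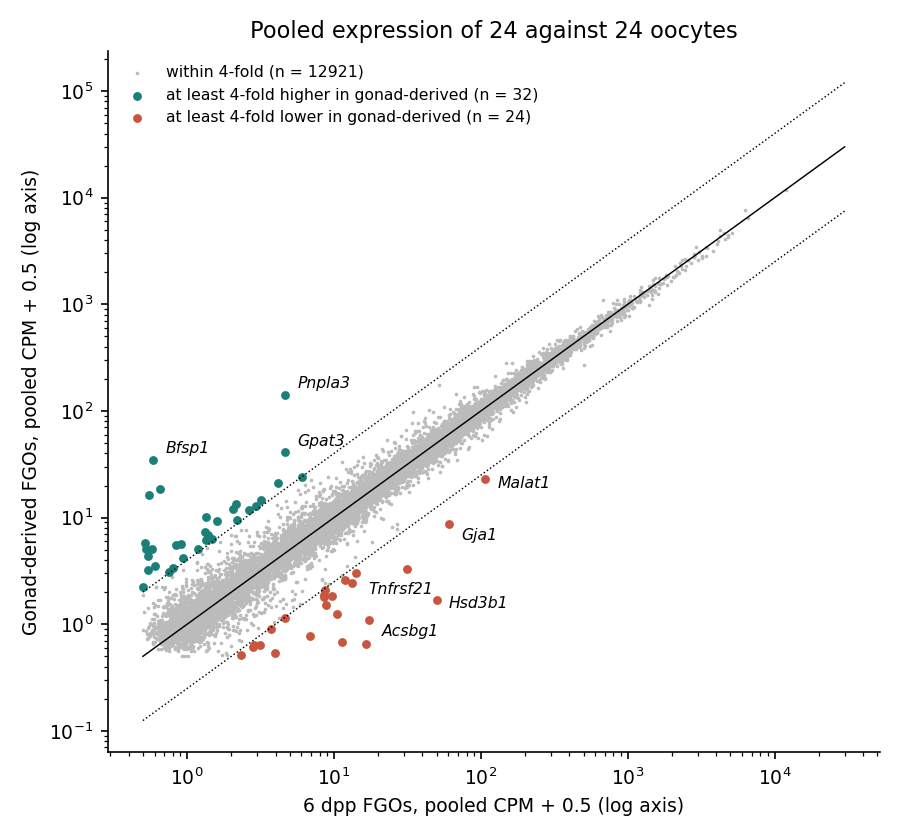
Pooled CPM + 0.5 of each of the 12977 genes in 6 dpp FGOs (horizontal, log axis) and gonad-derived FGOs (vertical, log axis), with the line of equality and dotted lines at 4-fold. The 32 higher and 24 lower genes lie at low and moderate levels, and the genes of highest level lie close to the line of equality.

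Despite the small number of genes, the oocytes of the groups were set apart along a principal component. The first component of log2(CPM + 1) held 15.8% of the variance and placed gonad-derived FGO 19 (score 140) away from the other 47 oocytes. Along the second component, with 10.6% of the variance, gonad-derived oocytes ran from -4.36 to 33.1 and 6 dpp oocytes from -32.1 to -5.36, so that all 24 gonad-derived oocytes lay above the highest 6 dpp oocyte. With FGO 19 and FGO 12 left out, the first component (13.2%) held that separation for all 23 remaining gonad-derived oocytes. The difference between group means took up 8.91% of the total sum of squares, or 11.0% without these 2 oocytes. Over the 7000 genes compared for spread, the median standard deviation between oocytes was 0.349 in gonad-derived and 0.259 in 6 dpp FGOs (log2 scale). Without FGO 19 and FGO 12 the values were 0.263 and 0.260, with 52.2% of genes more variable in the gonad-derived group.

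**Figure D3:**
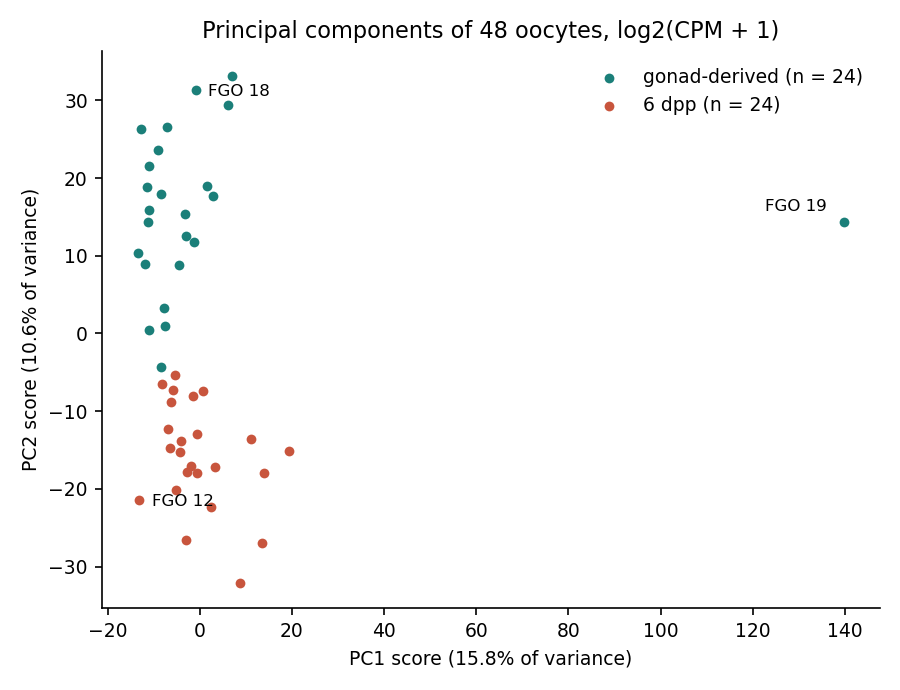
Scores of the 48 oocytes on the first (horizontal, 15.8% of variance) and second (vertical, 10.6%) principal components of log2(CPM + 1), gonad-derived in green and 6 dpp in red. Gonad-derived FGO 19 lies alone at 140 on the first component, and the groups do not overlap on the second.

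Genes that carried the comparison were taken as those past 2-fold with any single oocyte left out and reaching 5 pooled CPM where higher. There were 70 such genes higher in gonad-derived FGOs (0.539% of those compared) and 21 lower (0.162%). Those with the largest ratio of oocyte medians were examined first, 12 in each direction. An oocyte was nearer the median of its own group than that of the other on a median of 19.5 of these 24 genes for gonad-derived and 20 for 6 dpp FGOs. The exception was gonad-derived FGO 14, nearer its own group on 7 of 24. As the genes were chosen on these oocytes, the counts describe how evenly the differences were carried and test nothing.

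Start regions of genes of either direction, described below with their values, are shown so that the base composition around them can be seen. Each is the 250 bases before the start that the RefSeq promoter table (GRCm38.p6) gives, read 5′ to 3′ in the direction of the gene, with CG dinucleotides in capitals. Genes whose window lay at the edge of their RefSeq gene range were taken, although that of Scube1 reached into the range by 12 bases and that of Stc2 overlapped GENCODE exons (vM21) of the gene by 13 bases. Stc2 (chr11:31370062-31370311, minus strand) and Scube1 (chr15:83725040-83725289, minus strand) were higher in gonad-derived FGOs, and Tnfrsf21 (chr17:43016305-43016554, plus strand) and Hsd3b1 (chr3:98859795-98860044, minus strand) were lower. They held 24, 25, 12 and 1 CG dinucleotides, where the median over the 10225 compared genes with a window was 15.0 (quartiles 8 and 23, taking the window of most CG). These 4 genes do not stand for their groups: the median was 13.0 over the 52 of 70 higher genes with a window and 8.00 over 19 of the 21 lower genes. A comparison of the groups is void, as only 74.3% of the higher genes and 78.8% of all compared genes had a window.
Stc2: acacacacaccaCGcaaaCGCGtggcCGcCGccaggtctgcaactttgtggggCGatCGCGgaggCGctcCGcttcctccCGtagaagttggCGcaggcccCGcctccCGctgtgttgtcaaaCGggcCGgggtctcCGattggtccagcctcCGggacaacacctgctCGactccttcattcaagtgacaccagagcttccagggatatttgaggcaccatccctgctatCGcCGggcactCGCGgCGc
Scube1: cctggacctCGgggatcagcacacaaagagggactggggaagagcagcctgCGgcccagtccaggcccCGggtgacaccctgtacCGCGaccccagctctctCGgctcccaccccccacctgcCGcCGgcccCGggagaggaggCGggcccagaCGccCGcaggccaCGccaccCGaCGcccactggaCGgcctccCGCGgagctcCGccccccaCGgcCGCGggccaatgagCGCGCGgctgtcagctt
Tnfrsf21: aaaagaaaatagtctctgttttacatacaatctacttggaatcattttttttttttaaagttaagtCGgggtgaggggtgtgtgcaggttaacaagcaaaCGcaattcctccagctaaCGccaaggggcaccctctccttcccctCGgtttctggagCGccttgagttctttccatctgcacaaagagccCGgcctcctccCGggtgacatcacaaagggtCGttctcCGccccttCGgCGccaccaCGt
Hsd3b1: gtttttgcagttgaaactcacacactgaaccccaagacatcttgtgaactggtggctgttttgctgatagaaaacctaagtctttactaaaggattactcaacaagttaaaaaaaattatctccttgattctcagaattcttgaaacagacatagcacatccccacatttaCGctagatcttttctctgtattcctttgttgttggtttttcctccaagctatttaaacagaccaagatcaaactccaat

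A transporter, a transcription factor and proteins of vesicle release were among the genes higher in gonad-derived FGOs. Slc16a5, a member of the monocarboxylate transporter family (chr11:115462405-115474398), had a pooled level of 20.8 CPM (20.1 to 21.5) against 3.66 CPM (3.37 to 3.97), a log2 ratio of 2.35. In gonad-derived oocytes it ran from 2.45 to 55.4 CPM (median 23.3), and in 6 dpp oocytes from 0.574 to 9.54 CPM (median 3.77). Thus 18 of 24 gonad-derived oocytes exceeded every 6 dpp oocyte, and 10 of 24 6 dpp oocytes lay below every gonad-derived one. In vivo FGOs had 2.28 CPM of Slc16a5, close to the 6 dpp level.

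Bsn encodes Bassoon, a scaffold protein of the presynaptic active zone, and led the ratio of medians. It ran from 0.451 to 25.6 CPM (median 10.3) in gonad-derived and from 0 to 12.1 CPM (median 1.29) in 6 dpp FGOs, with pooled levels of 11.2 (10.7 to 11.8) and 2.16 CPM (1.94 to 2.40). At least 5 CPM was reached by 17 gonad-derived and 4 6 dpp oocytes, and 10 gonad-derived oocytes lay above all 6 dpp oocytes. For Bsn the in vivo FGOs, at 7.91 CPM, were nearer the gonad-derived level. Syt13, a synaptotagmin, had 12.4 against 2.47 CPM (ratio 2.12), or 1.89 without gonad-derived FGO 4, its highest oocyte. Kcnab2, an auxiliary subunit of potassium channels, had 8.91 against 1.69 CPM (ratio 2.10), and 18 gonad-derived oocytes exceeded every 6 dpp oocyte.

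Foxn4, a transcription factor of the forkhead family, ran from 0.150 to 16.7 CPM (median 5.50) in gonad-derived and from 0 to 2.77 CPM (median 0.709) in 6 dpp FGOs, a pooled ratio of 2.32. None of the 24 6 dpp oocytes reached 5 CPM of Foxn4 and 12 gonad-derived oocytes did. In vivo FGOs had 0.428 CPM of Foxn4, and iPSC-derived FGOs, which also went through IVD, had 2.66 CPM.

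Secreted and membrane proteins made up most of the others. Stc2, a secreted glycoprotein of the stanniocalcin family, had 5.85 against 0.973 CPM (ratio 2.11), with 16 gonad-derived oocytes above all 6 dpp oocytes, and its ratio was 1.91 without gonad-derived FGO 18. Scube1, also secreted, had 5.66 against 0.853 CPM (ratio 2.19). Tmem51, a transmembrane protein, had 22.1 against 6.53 CPM (ratio 1.68), and the ratio was 1.92 without 6 dpp FGO 12, which held 31.6 CPM. Ces1d, a carboxylesterase with near-identical neighbours, had 6.33 against 1.49 CPM and is uncertain for that reason. Ccdc33 had 6.28 against 1.67 CPM, with 17 gonad-derived oocytes above all 6 dpp oocytes. Its model overlaps Stra6, and whether reads were counted by strand is not given in the sources used here. The same doubt holds for Kcnab2, which overlaps Nphp4, for Selenop and Fermt3, described below, which overlap Ccdc152 and Trpt1, and for genes such as Bsn, Slc16a5, Syt13 and Ldha that overlap predicted or RIKEN gene models.

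Only Triobp, an actin-binding protein, had gonad-derived and 6 dpp oocytes that did not overlap at all (0.00771% of genes compared). It ran from 67.1 to 205 CPM (median 88.8) in gonad-derived and from 30.3 to 61.9 CPM (median 43.0) in 6 dpp FGOs, a pooled ratio of 1.21, and in vivo FGOs had 44.1 CPM. No gene was separated in the other direction. Further genes among the 70, named after their values were seen, had higher levels. Efna1, a ligand of Eph receptors, had 97.6 against 33.9 CPM, with 20 gonad-derived oocytes above all 6 dpp oocytes. Nfkbiz, a nuclear regulator of NF-kappaB target genes, had 175 against 51.5 CPM, with gonad-derived oocytes from 11.3 to 709 CPM. Slc16a11, of the same transporter family as Slc16a5, had medians of 11.5 against 3.33 CPM, and 21 gonad-derived oocytes exceeded every 6 dpp oocyte. Fgf1, a fibroblast growth factor, had 13.6 against 4.96 CPM and 17 such oocytes.

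**Figure D4:**
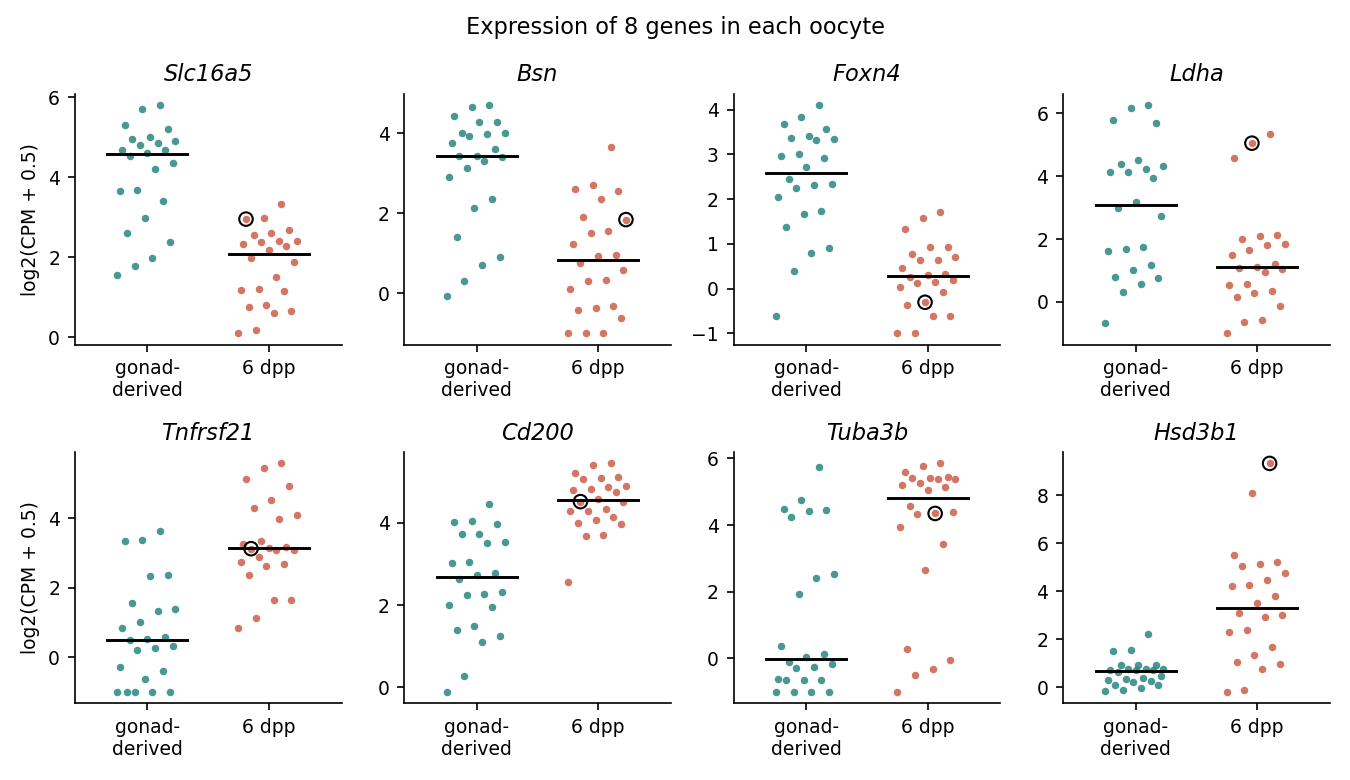
Expression of 8 genes in each oocyte as log2(CPM + 0.5), gonad-derived on the left and 6 dpp on the right of each panel, with a bar at the median and an open circle around 6 dpp FGO 12. The upper row shows 4 genes with higher medians in gonad-derived FGOs and the lower row 4 genes with lower medians. Tuba3b falls into high and low oocytes in both groups.

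Genes lower in gonad-derived FGOs included surface proteins whose level was higher still in in vivo FGOs. Tnfrsf21, a death receptor of the tumour necrosis factor receptor family, ran from 0 to 11.8 CPM (median 0.913) in gonad-derived and from 1.29 to 47.0 CPM (median 8.24) in 6 dpp FGOs. The pooled levels were 2.51 (2.27 to 2.77) and 13.6 CPM (13.0 to 14.2), a ratio of -2.23, which was -2.25 without FGO 12. Of the gonad-derived oocytes 14 lay below every 6 dpp oocyte. The level of Tnfrsf21 was 35.0 CPM in in vivo FGOs and 2.65 CPM in iPSC-derived FGOs.

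Cd200, the ligand of an inhibitory immune receptor, showed the same order. It ran from 0.431 to 21.6 CPM (median 5.91) in gonad-derived and from 5.42 to 43.0 CPM (median 23.0) in 6 dpp FGOs, with a ratio of -1.62 that FGO 12 (22.4 CPM) did not set. All 24 6 dpp oocytes had at least 5 CPM of Cd200, and 13 of 24 gonad-derived oocytes did. In vivo FGOs had 42.3 CPM and iPSC-derived FGOs 5.15 CPM. Peli2, a ubiquitin ligase of the Pellino family, had 2.80 against 8.25 CPM (ratio -1.41), and 10.3 CPM in vivo. The predicted gene Gm1653 had 5.23 against 11.7 CPM, and 16 gonad-derived oocytes lay below all 6 dpp oocytes. Gonad-derived FGO 11 was the highest gonad-derived oocyte for Tnfrsf21, Cd200, Peli2 and Gm1653 alike, at 11.8, 21.6, 19.8 and 14.0 CPM.

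Tuba3b, an alpha-tubulin, had medians of 0.483 against 28.2 CPM, the largest ratio of medians in either direction. Its oocytes fell into high and low ones in both groups: 7 gonad-derived and 19 6 dpp oocytes had at least 5 CPM, and the pooled levels were 7.32 (6.91 to 7.75) and 26.5 CPM (25.7 to 27.3). In vivo FGOs ran from 6.75 to 126 CPM (median 52.0), and iPSC-derived FGOs had 3.50 CPM pooled. Tuba3b has a near-identical copy, so its level is uncertain. Stx11, a syntaxin, had 2.14 against 5.88 CPM (ratio -1.27), with 13 gonad-derived oocytes below all 6 dpp oocytes.

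The remaining lower genes moved with the somatic markers in part. Hsd3b1, which converts pregnenolone to progesterone, had 1.18 CPM (1.02 to 1.36) against 49.4 CPM (48.3 to 50.5), a ratio of -4.89, or -3.88 without FGO 12. Gonad-derived oocytes ran from 0.408 to 4.22 CPM (median 1.09) and 6 dpp oocytes from 0.381 to 644 CPM (median 9.51). Although FGO 12 (644 CPM) and FGO 10 (271 CPM) were the 2 highest, 17 of 24 6 dpp oocytes exceeded every gonad-derived oocyte. In vivo FGOs had a median of 0.809 CPM of Hsd3b1 and a highest value of 37.0 CPM. The gene belongs to a family of close copies, and it was used among the somatic markers, whose 6 dpp median without it was 569 CPM over 35 markers, Serpine2, Esr2 and Cyp19a1 included.

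Hsd17b1, which makes estradiol from estrone, had 1.31 against 8.04 CPM (ratio -2.24, or -1.77 without FGO 12), and 8 6 dpp oocytes exceeded every gonad-derived one. Selenop, a selenium carrier, had 1.33 against 9.21 CPM (ratio -2.41, or -2.30 without FGO 12), with 18 such oocytes. Mt1, a metallothionein, had 1.60 against 8.21 CPM, and the ratio of -2.06 was -1.54 without FGO 12. Mgst1, a microsomal glutathione transferase, had 1.92 against 12.7 CPM (ratio -2.45, or -1.45 without FGO 12). Acsbg1, an acyl-CoA synthetase, had 0.604 against 16.8 CPM (ratio -3.97, or -2.26 without FGO 12). FGO 12 and FGO 10 were the highest 6 dpp oocytes for Hsd17b1, Mt1, Mgst1 and Acsbg1 alike. The part of adhering somatic RNA in these ratios was not tested.

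Grem1, an antagonist of bone morphogenetic proteins, was one of the 6 genes that stayed 4-fold lower whichever oocyte was left out, although its level was low. Pooled levels were 0.0431 CPM (0.0173 to 0.0888) against 3.48 CPM (3.19 to 3.78), a ratio of -2.87, or -2.73 without FGO 12. No gonad-derived oocyte was above 0.327 CPM, and 22 of 24 6 dpp oocytes exceeded that. In vivo FGOs had 0.290 CPM. The other members of these 6 were Tnfrsf21, Selenop, Hsd3b1, Acsbg1 and Mgarp. Leaving out 1 oocyte never removed FGO 12 and FGO 10 together. Mgarp stood at 90.7 and 29.2 CPM in these 2 oocytes, against a 6 dpp median of 0.778 CPM. For Acsbg1 the values were 300 and 60.2 CPM, against a median of 1.83 CPM. The part of adhering somatic RNA in these 6 genes was not tested.

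Prss35, Ccn2, Clu, Gja1, Inhba and S100a10 had large pooled ratios that rested in part on FGO 12. Prss35, a secreted protease-like protein of the follicle, had 16.1 CPM in 6 dpp FGOs, where FGO 12 held 366 CPM and the median was 0.0644 CPM, and its ratio of -4.67 was -1.41 without that oocyte. Ccn2, a matricellular protein, stood at -4.07 and -0.62, Clu, a secreted chaperone, at -3.25 and -0.59, and Gja1, connexin 43, at -2.78 and -0.43. Inhba, an activin subunit, stood at -3.06 and -1.55, and S100a10, a partner of annexin A2, at -2.55 and -1.21. Gonad-derived FGO 18 was the highest of its group for Prss35, Ccn2, Clu, Gja1 and S100a10. With FGO 18 and 6 dpp FGOs 10 and 12 left out together, an alternative added after the values were seen, the ratios of Clu and Gja1 were 0.03 and 0.21. The long nuclear RNA Malat1 had 22.3 against 106 CPM and was highest in FGO 12 (1539 CPM) and FGO 10 (692 CPM), and its median over oocytes was 17.2 in gonad-derived and 14.7 CPM in 6 dpp FGOs.

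**Figure D5:**
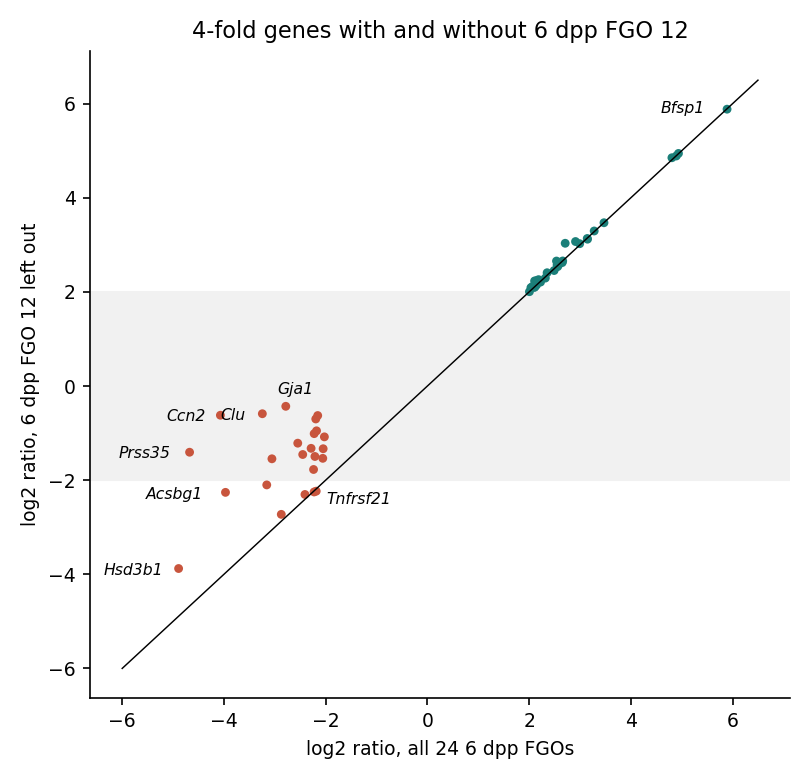
Log2 ratios of the 56 genes past 4-fold with all oocytes (horizontal) and with 6 dpp FGO 12 left out (vertical), the line marking equality and the grey band ratios within 4-fold. All 32 higher genes stay past 4-fold, with shifts of -0.04 to 0.32, and 17 lower genes, such as Gja1 (-2.78 and -0.43), move into the band.

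Among the higher genes, too, some were carried by few oocytes. In 11 of the 4-fold higher genes that reached 5 pooled CPM, the group medians differed by less than 2-fold. The oocytes that carried them were mostly shared: gonad-derived FGOs 17, 18 and 22 each belonged to the upper set of 9 of the 11 genes, FGO 19 to that of 6, FGOs 20, 21 and 23 to that of 5 and FGO 10 to that of 3. Of the other 16 oocytes, FGOs 1 and 3 shared a single gene, Fermt3, and 14 belonged to none. Oocyte numbers are names taken from the labels, and whether neighbouring numbers share an embryo, a culture or a plate is not given in the sources used here.

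Bfsp1, a beaded filament protein of the eye lens, had at least 88.7 CPM in 5 gonad-derived oocytes (FGOs 10, 17, 18, 21 and 22) and at most 0.290 CPM in the other 19. No 6 dpp oocyte exceeded 0.417 CPM. Pnpla3, a lipid droplet protein, had at least 561 CPM in FGOs 10, 17, 18, 19 and 22, at most 6.19 CPM in the other 19 and at most 5.28 CPM in 6 dpp oocytes. Gsto2, a glutathione transferase of the omega class, and Arhgef15, a guanine nucleotide exchange factor, were both high in the 7 oocytes from FGO 17 to FGO 23. They had at least 24.3 and 2.59 CPM there, against at most 0.669 and 0.301 CPM in the others. Gpat3, an acyltransferase of triglyceride synthesis, had at least 168 CPM in FGOs 17, 18, 20, 22 and 23 and at most 29.0 CPM in the other 19. Fermt3 rested on gonad-derived FGO 1 at 112 CPM, and its ratio of 2.49 was 0.83 without it.

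Of these 11 genes 10 were also higher in gonad-derived than in vivo GROs, which were other oocytes taken before IVG, as were 47.1% of all genes measured there. The exception was Fermt3, at 10.1 against 22.3 CPM. Pooled gonad-derived GROs held 365 CPM of Pnpla3 against 5.19 CPM in in vivo GROs, 37.2 against 0.111 CPM of Bfsp1, 98.7 against 1.79 CPM of Gpat3 and 47.4 against 0.142 CPM of Gsto2. Pnpla3, Bfsp1 and Gpat3 were present in iPSC-derived FGOs, at 620, 231 and 51.2 CPM, while Gsto2 stood at 0.108 CPM there.

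The same was seen across the 70 higher genes. No library is shared between the comparison of FGOs and that of GROs. Both gonad-derived groups came from E12.5 gonads through IVD, however, so a difference of mice or culture would enter both comparisons. The paper reports that gonad-derived GROs were larger than in vivo GROs, and size did not enter the values here. For the gene clusters it calls prematurely activated, the paper saw the rise at equal size too. Of the 70 genes, 68 (97.1%) stood above the in vivo GROs in pooled gonad-derived GROs, and 54 (77.1%) were at least 2-fold higher there, where 4.42% of the 12389 genes measured at that stage were. Their median log2 ratio at the GRO stage was 1.63, against -0.03 over all genes. Of the 21 lower genes 18 were measured in GROs. There 17 (94.4%) were lower in gonad-derived GROs, as were 52.9% of all genes, 4 of them at least 2-fold, where 2.57% of all genes were, with a median of -0.68. Slc16a5 was at 15.8 against 2.08 CPM and Foxn4 at 6.91 against 0.544 CPM in gonad-derived and in vivo GROs. Tnfrsf21, by comparison, stood at 1.73 against 3.96 CPM and Cd200 at 1.59 against 2.92 CPM, both low in GROs of either origin.

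Growth in vivo was set beside these differences. Genes that were 2-fold or more above in vivo GROs in in vivo FGOs (UP) made up 10.5% of genes compared and genes as far below (DN) 12.4%. As a class neither was displaced: the median ratio of gonad-derived over 6 dpp FGOs was -0.01 for UP genes and 0.02 for DN genes. The UP class held more genes past 2-fold, with 3.45% higher and 2.94% lower, against 1.64% and 0.948% over all genes. With classes taken at 4-fold, the shares were 2.98% and 4.71% for UP genes and 3.78% and 0% for DN genes. Of the 21 genes that stayed lower whichever oocyte was left out, 13 (61.9%) were UP genes and 1 was a DN gene. Of the 70 higher genes 24 (34.3%) were UP and 5 were DN. Tnfrsf21, Cd200 and Tuba3b belonged to the UP genes, with in vivo log2 differences between FGOs and GROs of 2.99, 3.65 and 3.56.

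Genes of pyruvate use and glycolysis had a median ratio of 0.20 over 33 measured members, with 24 above 0. The median over all genes was 0.02, so that most genes also lay above 0. Growing oocytes rely on pyruvate made by granulosa cells and carry out little glycolysis themselves. In this list 4 genes (Slc16a5, Ldha, Aldoc and Pfkl) were 2-fold higher in gonad-derived FGOs and 0 were lower, with and without FGO 12 or FGO 19, where 1.64% and 0.948% of all genes were. Ldha encodes the muscle-type subunit of lactate dehydrogenase. It ran from 0.134 to 76.7 CPM (median 7.97) in gonad-derived FGOs and from 0 to 40.5 CPM (median 1.64) in 6 dpp FGOs. The pooled levels of Ldha were 16.2 (15.6 to 16.8) and 5.39 CPM (5.04 to 5.76), a ratio of 1.50, or 1.82 without FGO 12, which held 32.7 CPM. At least 5 CPM was reached by 14 gonad-derived oocytes and by 3 6 dpp oocytes, FGOs 3, 12 and 10, which were also the 6 dpp oocytes of highest somatic marker sum. Gonad-derived FGO 18, the highest of its group in that sum, was the highest for Ldha and for 11 of the 33 genes (33.3%), where it was for 7.27% of all genes. Without it the same 4 genes were past 2-fold and the ratio of Ldha was 1.22, and without it and 6 dpp FGOs 3, 10 and 12, an alternative added after the values were seen, Slc16a3 joined them and the ratio of Ldha was 2.67. In iPSC-derived FGOs Ldha had 29.1 CPM and in in vivo FGOs 6.24 CPM.

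Pfkl, a subunit of phosphofructokinase, ran from 8.69 to 73.9 CPM (median 35.4) in gonad-derived and from 3.57 to 36.0 CPM (median 14.3) in 6 dpp FGOs, a ratio of 1.22. Aldoc, an aldolase, had 3.04 against 0.935 CPM (ratio 1.30). Pdk1, the kinase that inhibits pyruvate dehydrogenase, had 80.3 against 40.3 CPM, a ratio of 0.99 just under 2-fold, and 16 gonad-derived oocytes exceeded every 6 dpp oocyte. Tpi1, triosephosphate isomerase, had a ratio of 0.91. The subunits of the mitochondrial pyruvate carrier did not differ in this way: Mpc1 had 11.6 against 12.3 CPM and Mpc2 70.4 against 71.6 CPM. Slc16a1, another monocarboxylate transporter, had 95.3 against 134 CPM (ratio -0.49). Ldhb, the heart-type subunit of lactate dehydrogenase, was by far the more abundant, with 1697 and 1728 reads per kilobase per M reads (RPKM) in gonad-derived and 6 dpp FGOs, against 8.32 and 2.77 RPKM of Ldha.

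An Ldha start region is shown because the gene had the largest ratio of the list after Slc16a5. The promoter table gives 2 starts, both inside the RefSeq gene range (chr7:46842274-46855627). The 250 bases before the first of these (chr7:46845554-46845803, plus strand, GRCm38.p6) overlapped no Ldha exon of GENCODE and held 5 matches to ACGTG on either strand, in capitals, with neighbouring matches overlapping. The window before the second start held 0 matches. ACGTG occurs in hypoxia response elements and in some E-boxes. It was found in 16.6% of all 32851 windows of that length, in 23.7% of the 10225 compared genes with a window, counting any start of a gene, and in 14 of 30 genes of this list (46.7%). The windows of this list also held more CG, with a median of 18.0 against 15.0. The match is a feature of the sequence and no factor was measured.
Ldha: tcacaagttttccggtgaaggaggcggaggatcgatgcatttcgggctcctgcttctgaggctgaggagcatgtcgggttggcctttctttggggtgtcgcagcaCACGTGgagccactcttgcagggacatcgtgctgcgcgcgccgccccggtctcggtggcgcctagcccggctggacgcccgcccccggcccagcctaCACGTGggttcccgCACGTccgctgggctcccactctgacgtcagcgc

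Steroidogenic genes were mostly within 2-fold. Of 22 measured members 6 were 2-fold lower in gonad-derived FGOs (Hsd3b1, Hsd17b1, Cyp11a1, Akr1cl, Cyp17a1 and Hsd11b2), 0 were higher, and the median was -0.16, where 0.948% of all genes were lower and 1.64% higher. Without FGO 12, 4 were 2-fold lower, against 0.47% of all genes, because Cyp11a1 moved from -2.19 to -0.70 and Cyp17a1 from -1.54 to -0.63. Akr1cl, an aldo-keto reductase, moved from -1.96 to -1.15 and Hsd11b2 from -1.28 to -1.22, or to -0.78 without 6 dpp FGO 10. Cyp19a1, the aromatase, had 77.2 against 74.7 CPM, with ranges of 53.0 to 101 and 35.7 to 105 CPM. The theca and stroma list had 6 of 9 measured genes 2-fold lower, or 2 without FGO 12 (Hsd3b1 and Dcn), and the granulosa list 3 of 12, or 2 without it (Inhba and Hsd17b1), beside the same 0.948% and 0.47% of all genes. In the theca and stroma list, no gonad-derived oocyte exceeded 0.575 CPM of Cyp17a1, Lhcgr or Insl3. These genes passed the filter through 6 dpp oocytes alone and could hardly come out higher, so their direction is no evidence. The same holds for Cyp17a1 among the steroidogenic genes. Kitl, the ligand of the receptor KIT, had 8.52 against 15.7 CPM, and 11 6 dpp oocytes exceeded every gonad-derived one.

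The study's text names 33 genes of its own choice. It took part of them from these samples, so that the list is not independent evidence of a direction. Of 27 measured, 1 was 2-fold higher and 2 were lower, where 1.64% and 0.948% of all genes were. Psd2, an exchange factor of ARF proteins, ran from 5.75 to 27.4 CPM (median 11.5) in gonad-derived and from 1.85 to 6.66 CPM (median 3.72) in 6 dpp FGOs, and 21 gonad-derived oocytes exceeded every 6 dpp oocyte. Its pooled ratio was 1.51, or 1.53 without FGO 12. Aldh1a1, which makes retinoic acid from retinaldehyde, stood at -2.02, or -1.08 without FGO 12, which held 57.1 CPM where the 6 dpp median was 1.10 CPM. Adh1, a dehydrogenase of retinol, stood at -1.05, or -0.40 without it. Of 20 measured retinoid genes, 3 were 2-fold lower with FGO 12 (Aldh1a1, Adh1 and Dhrs7) and 1 without, and the median was 0.00 in the full set. The retinoic acid receptor Rarg had a ratio of 0.91.

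Stress genes had 4 of 29 measured members 2-fold lower, Mt1, Mt3, Mt2 and Fos, and a median of -0.16. For this and the lists that follow, 0.948% of all genes were 2-fold lower and 1.64% higher. Mt2 had 0.640 against 1.93 CPM and Mt3 0.0370 against 1.34 CPM, so that all 3 metallothioneins of the list were lower in gonad-derived FGOs, although the ratio of Mt2 was -0.97 without FGO 12. No gonad-derived oocyte exceeded 0.527 CPM of Mt3, which passed the filter through 6 dpp oocytes alone and could hardly come out higher. Fos was highest in 6 dpp FGO 3, at 35.1 CPM against a group median of 0.384 CPM, and its ratio of -1.18 was -0.01 without that oocyte. Without FGO 12, 3 members of the list were 2-fold lower and 1 was higher, Jun, a partner of Fos, which moved from 0.59 to 1.09, and Cat, catalase, moved from -0.46 to 0.39. Among 20 Notch pathway genes, Heyl (ratio 1.49) and Dll1 (1.07) were 2-fold higher. Heyl, a target of Notch signalling, ran up to 48.8 CPM in gonad-derived FGO 18, with medians of 1.89 against 1.36 CPM, and its ratio was 0.79 without that oocyte. Dll1 stood at 0.95 without gonad-derived FGO 3. Of 27 imprinted genes, Nap1l5 (-1.85, or -1.49 without FGO 12) and Dcn (-1.12, or -0.81 without 6 dpp FGO 3) were 2-fold lower. Among 31 cell adhesion genes, Itgb4, an integrin subunit, had 6.77 against 2.48 CPM and 13 gonad-derived oocytes above all 6 dpp oocytes, and Igsf21 had a ratio of 1.02, or 0.85 without gonad-derived FGO 12. Ccl2 (1.02, or 0.66 without gonad-derived FGO 4) was the 1 chemokine of 9 past 2-fold, and Pik3r2 (1.01, or 0.79 without gonad-derived FGO 1) the 1 gene of 24 in the Kit and PI3K list. Gja1 was the 1 of 13 gap junction genes and Cd81 the 1 of 11 zona and egg surface genes past 2-fold, and neither was without FGO 12.

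Groups of genes central to the oocyte were within 2-fold in every measured member by pooled ratio, as were 97.4% of all genes compared. This held for 34 polycomb genes (median -0.03), 20 genes of DNA methylation (-0.04), 23 maternal effect genes (0.06), 41 genes of meiotic control (0.05), 25 genes of cholesterol synthesis (0.02), 26 genes of mRNA storage and translation (-0.09) and 15 oocyte transcription factors (-0.04). It also held for these lists without FGO 12 and without FGO 19. With any single oocyte left out or with medians over oocytes, the exception was the polycomb gene Cbx7, with 24.6 against 13.2 CPM and a ratio of 0.88. Its ratio was 1.04 without 6 dpp FGO 20, and its medians were 24.2 against 9.67 CPM. Nobox had 929 against 1065 CPM and Figla 46.5 against 52.9 CPM. Among 11 growth factor genes of the oocyte and its follicle, Bmp15 had 4130 against 4570 CPM and Kit 277 against 224 CPM. Igf1 had a ratio of 0.95, or 0.25 without gonad-derived FGO 18, its highest oocyte at 34.9 CPM, and 1.26 without 6 dpp FGO 12, and its medians were 1.27 against 1.21 CPM.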

How the data were processed

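Single-oocyte libraries were made with Smart-seq2 and sequenced as single-end reads of 75 bases. The authors deposited raw counts per gene, made from reads aligned with STAR to GRCm38 (mm10), with counting by QuasR of uniquely mapped exonic reads. The version of QuasR and the use of strand are not given in the sources used here, so genes with near-identical copies or overlapping models are uncertain. The deposited exonic length was used only for RPKM. Symbols came from the RefSeq table of GRCm38.p6, which matched 21907 of 21950 identifiers.

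Each oocyte was assigned to its group by its label. No 2 libraries were identical. As no label names an animal or culture, each group is 1 sample: no test was run, and counts were summed per group, divided by summed totals (162 M reads for gonad-derived and 159 M for 6 dpp FGOs) and called at 2-fold and 4-fold. In a group, 3 reads correspond to 0.0185 and 0.0188 CPM. Genes named were (a) the 12 per direction of largest ratio of medians among genes of at least 5 CPM past 2-fold with any oocyte left out, (b) up to 6 per direction past 4-fold that fell short of it without 1 oocyte, (c) up to 4 per list and (d) genes of the study's text; others are said to be named after their values were seen, and 1 gene of (a) is not reported here. The members and the 25 lists were chosen with earlier results of these data known, and 36 of 582 list genes were not matched and not analysed here. Alternatives were pseudocounts of 0.1 and 2 CPM, edgeR TMM (version 4.0.16) and DESeq2 (version 1.42.0) size factors, filters, other averages and oocytes left out. Python 3.11.15, numpy 2.4.6 and R 4.3.3 were used. The ratio was tested on simulated counts.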

Additional observations from a re-analysis of the deposited data

How the results depend on the processing

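No paired analysis was possible because no test was run and the labels do not tie oocytes of equal number to each other. Counts past a fold depended on how low levels were handled. With pseudocounts of 0.1 and 2 CPM, 63 and 8 genes were 4-fold higher, 57 and 8 were 4-fold lower, 385 and 80 were 2-fold higher and 258 and 47 were 2-fold lower; list members 2-fold higher numbered 17 and 5, and 11 were 2-fold lower with 2 CPM. With CPM above 1 in at least 24 oocytes the 4-fold counts were 15 and 10, the 2-fold counts 128 and 45, and 9 list members were lower. Medians over oocytes gave 9 and 5 genes at 4-fold, 71 lower at 2-fold and 9 lower list members. Means of log2 values gave 6 and 5 at 4-fold, 130 and 57 at 2-fold and 11 lower list members. Leaving out somatic marker genes left 11 lower list members. Leaving out 1 oocyte at a time gave 29 to 34 higher and 7 to 32 lower genes at 4-fold, 186 to 238 and 61 to 138 at 2-fold, 8 to 13 list members higher and 12 to 21 lower. The lowest of both ranges of lower genes came from 6 dpp FGO 12.

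In alternatives added after seeing the data, leaving out gonad-derived FGO 19 and 6 dpp FGO 12 left 7 genes 4-fold lower, 60 genes 2-fold lower and 12 list members lower. Leaving out gonad-derived FGO 18 and 6 dpp FGOs 10 and 12 left 5, 47 and 6, and turned Clu to 0.027 and Gja1 to 0.207, while the other 30 of 32 named genes kept their sign in every alternative. The somatic sum of FGO 12 over 36 markers was 3151 CPM, and 2507 CPM without Hsd3b1. The causes were not tested. TMM and DESeq2 size factors moved no count of genes past 1.5 times.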

Other observations

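Single oocytes of both groups carried sets of genes far above the rest of their group, counted as genes of at least 10 CPM and at least 4-fold above the next highest oocyte. Gonad-derived FGO 1 had 11 such genes, among them Trim29 (224 CPM), an ATDC family protein, Septin9 (64.9 CPM), a cytoskeletal GTPase, Itga3 (27.1 CPM), an integrin subunit, and Fermt1 (23.7 CPM), a kindlin of epithelial cells. In 6 dpp FGO 11, Trim29 (80.5 CPM), Septin9 (22.5 CPM) and Fermt1 (18.8 CPM) likewise met this rule, and the group medians of Trim29 were 0 in both groups. Gonad-derived FGO 18 had 15 such genes, among them the smooth muscle actin gene Acta2 (34.9 CPM), the collagen gene Col3a1 (28.3 CPM), the intermediate filament gene Vim (28.6 CPM) and the stromal transcription factor gene Tcf21 (10.4 CPM). In 6 dpp FGO 12, where Gja1 and Hsd3b1 were highest, Acta2 and Col3a1 were at 0.

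6 dpp FGO 3 had 31 such genes. They included Dusp6 (170 CPM), a phosphatase of ERK kinases, Fos (35.1 CPM), Skor1 (130 CPM), Hesx1 (30.0 CPM) and the DNA demethylation gene Tet2 (57.3 CPM), and its somatic marker sum was the third of the group at 144 CPM. Genes of this kind numbered 59 in 6 dpp FGO 12 and had a median of 0 over the oocytes of either group. These sets were picked from the values and are given as a description.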
